A study of Mus musculus with 9 samples.

Results

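The genes described here are 50 mouse genes that carry cells through the G1/S transition and copy DNA, chosen by symbol from 55401 gene IDs: origin licensing factors, the MCM helicase and its activators, DNA polymerases, the clamp and its loader, single-strand binding proteins, nucleotide enzymes, G1 cyclins and kinases, 2 E2F factors and proteins that copy chromatin. All 50 were found in the table, and all 50 passed the filter on low counts among 13501 tested genes. They were read in poly(A) RNA of peritoneal macrophages, written as Thio-elicited in the series text (thioglycollate is an irritant that draws macrophages into the abdominal cavity), which were collected after a short time on culture plates. There were 9 libraries, 3 of each genotype. The first, called SE, came from mice labelled Stat6S807E/S807E, the second, called SA, from mice labelled Stat6S807A/S807A, and the third from wild type (WT) mice. STAT6 is the transcription factor activated by interleukin-4 and interleukin-13. An alanine at this position cannot carry a phosphate, and glutamate puts a negative charge in its place. The series title concerns phosphorylated Ser807 and macrophage senescence. The sources used here do not give strain, age or sex, nor whether libraries of 1 genotype came from different mice, so the p-values speak only of library-to-library spread, which may be technical.

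In G1, D-type cyclins with CDK4 or CDK6 phosphorylate the retinoblastoma protein, which frees E2F factors to switch on genes for DNA synthesis. The origin recognition complex, CDC6 and CDT1 load the MCM helicase onto origins in G1. In S phase CDC45 and the GINS complex join it, polymerases epsilon and delta extend both strands, and PCNA holds them on DNA. Macrophages recruited to the peritoneum are mostly non-dividing cells, a part of which can divide locally.

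Levels are CPM, which are reads of a gene per 1000000 counted reads after scaling the library totals by TMM factors, given for libraries 1, 2 and 3 of a genotype in that order. The deepest library held 24618608 counts and the shallowest 17286617. A count of 3, an approximate upper 95% limit for a gene with 0 counts, is worth between 0.120 and 0.176 CPM, counting error only. Fold changes, standard errors and p-values come from edgeR's quasi-likelihood test over all 9 libraries. Calls use a threshold of 0.05 on p-values adjusted by Benjamini and Hochberg across the whole tested table. Counts per gene do not show the mutated codon and cannot check the labels, but Stat6 stood at 291, 284 and 312 CPM in SE libraries, 195, 199.5 and 199.8 CPM in SA libraries and 198, 201 and 187 CPM in WT libraries, 1.52-fold higher in SE than in WT (adjusted p = 6.27e-06 by edgeR). The part of the higher Stat6 level in the SE differences given below was not tested and cannot be told apart from that of the glutamate. The 8 macrophage markers summed to between 18610 and 23800 CPM in every library, with Lyz2 and Csf1r the most abundant. Summed CPM was 0.582 to 2.11 for 8 B cell markers, with Pax5 at 0 counts in every library, and 4.35 to 6.52 for 8 T and NK cell markers, with Cd3e at 0. The sums were higher, at 21.3 to 29.1 CPM for 8 eosinophil and mast cell markers and 21.4 to 31.4 CPM for 8 red cell and platelet markers. Few genes carried these sums, since only 2 of the 8 passed the filter in each list. The part of such cells in the levels given here was not tested. For 8 neutrophil and 8 dendritic cell markers they were 0.976 to 1.86 and 1.67 to 3.57 CPM. In bulk RNA, a change in the number of cycling cells and a change in RNA per cell cannot be told apart.

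Letters that match E2F binding sites were looked for in promoters, since many DNA replication genes are textbook E2F targets. RefSeq promoter windows (build GRCm38.p6, which is the mm10 assembly, from 250 bases before a start to 50 bases after) were available for 41 of the 50 genes. TTTCCCGC, TTTGGCGC, TTTCGCGC or TTTGCCGC on either strand occurred in 16 of these 41 genes (39.0%), against 704 of 27025 genes in the whole table (2.60%). By window, 31.4% of 51 windows of these genes and 2.26% of all 32851 windows held a match. The 9 genes called higher in SE than in WT, described below, all had a window, and 6 of the 9 held a match (66.7%), compared with 10 of the other 32 (31.2%). By window the contrast was smaller, at 46.2% of 13 windows against 26.3% of 38. The split also rests on calls that depended on single libraries, as given below. Among the other replication genes and other G1/S regulators described further below, 10 of 39 (25.6%) and 6 of 19 (31.6%) with a window held a match. Promoters were not matched for base composition in any of these comparisons. These shares are descriptions, and a match is not evidence of binding. The following stretches run from position -200 to -31 relative to the first transcribed base. They are shown for Uhrf1, Mcm7 and Mcm5, 3 genes called higher in SE than in WT. Mcm6 of the same helicase and Cdc6, neither called in SE vs WT, were added, and Cdc6 was called higher in SE than in SA. Only windows with a match in this stretch are shown, so they do not stand for the 50 genes. Mcm2, Chaf1a and Rfc5, also called higher in SE than in WT, held no match in their windows. Capitals mark the E2F matches, which overlap on opposite strands in Mcm5 and, at the first of its sites, in Mcm6.
Uhrf1 (chr17:56304113-56304282, + strand): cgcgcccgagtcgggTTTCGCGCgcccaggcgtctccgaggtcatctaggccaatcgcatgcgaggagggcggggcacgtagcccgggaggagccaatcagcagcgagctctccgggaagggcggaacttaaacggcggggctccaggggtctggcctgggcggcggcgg
Mcm7 (chr5:138171914-138172083, - strand): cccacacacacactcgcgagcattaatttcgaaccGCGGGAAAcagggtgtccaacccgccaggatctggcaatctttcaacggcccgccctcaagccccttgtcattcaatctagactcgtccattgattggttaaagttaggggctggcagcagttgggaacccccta
Mcm5 (chr8:75109309-75109478, + strand): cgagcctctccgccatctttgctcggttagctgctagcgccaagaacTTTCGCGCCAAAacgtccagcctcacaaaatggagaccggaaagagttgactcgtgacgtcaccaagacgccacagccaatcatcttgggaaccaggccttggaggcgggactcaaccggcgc
Mcm6 (chr1:128359736-128359905, - strand): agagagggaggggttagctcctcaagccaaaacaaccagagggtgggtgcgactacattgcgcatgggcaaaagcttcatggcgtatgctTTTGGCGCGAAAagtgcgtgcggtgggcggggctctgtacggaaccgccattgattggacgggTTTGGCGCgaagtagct
Cdc6 (chr11:98907951-98908120, + strand): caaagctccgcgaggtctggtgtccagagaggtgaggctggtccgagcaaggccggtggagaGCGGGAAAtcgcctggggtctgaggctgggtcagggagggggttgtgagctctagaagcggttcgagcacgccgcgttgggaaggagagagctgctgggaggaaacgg

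Uhrf1 and Mcm7 each have 2 listed starts, of which the one with the match upstream is shown. The letters TTTGAA, found in promoters of many mitotic genes and known as CHR, were looked for beside them. They occurred in 6 of the 41 genes with a window (14.6%) and in 24 of 34 G2/M and mitosis genes (70.6%), against 20.2% of all genes. E2F letters occurred in 3 of the same 34 mitotic genes (8.82%).

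Of the 50 genes, 9 rose in SE relative to WT and 1, Ccnd3, fell. The 9 make up 18% of the genes, against 2.35% of all tested genes called higher (2.69% were called lower). The risen genes were Uhrf1, Mcm2, Mcm3, Mcm5, Mcm7, Lig1, Chaf1a, Rfc5 and Pold1, by 1.23-fold to 1.59-fold. The median log2 fold change over the 50 was 0.23, beside -0.003 over all tested genes, and 44 of 50 were positive (88%), beside 49.2% of all. By raw p under 0.05, 25 were higher and 2 lower, beside 9.02% and 9.25% of all tested genes. In 25 of the 50, every SE library lay above every WT library (50%, beside 10.1% of all tested genes), and in 3 every SE library lay below (10.4% of all). The count of risen genes rested on single libraries. It was 1 without SE1 and 1 without WT3, where Uhrf1 alone kept its call, 6 without SE3, 5 without WT1, and 8 to 11 without SE2 or WT2. Over all tested genes, 332 were called without SE1 and 292 without WT3, against 680 with every library. The median stayed between 0.19 and 0.28 in all fits run. In the same SE libraries, 6 monocyte markers summed to 142, 169 and 173 CPM, compared with 68.8, 77.2 and 79.7 CPM in SA libraries and 61.8, 59.4 and 69.3 CPM in WT libraries. Most of the SE sum was 1 gene, Chil3 (107 to 134 CPM in SE), so the sum mainly follows Chil3. Chil3 is also an effector gene of alternatively activated macrophages, so the sum is not a measure of monocyte number. The markers went both ways: Chil3 and Fn1 rose in SE relative to WT and Ccr2 fell, while Ly6c2 was at or near 0. Of the 8 macrophage markers, 2, Mertk and Fcgr1, also fell in SE relative to WT (25%, against 2.69% of all tested genes; 4 lower and 0 higher by raw p under 0.05), with a median log2 fold change of -0.14. Mertk was 1.27-fold and Fcgr1 1.23-fold lower (adjusted p = 0.0195 and 0.0157 by edgeR). The number of markers that fell was 0 without WT3, 1 without SE1, SE2 or WT1 and 3 without WT2. The part of monocytes or of macrophage markers in the levels given here was not tested.

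**Figure D1:**
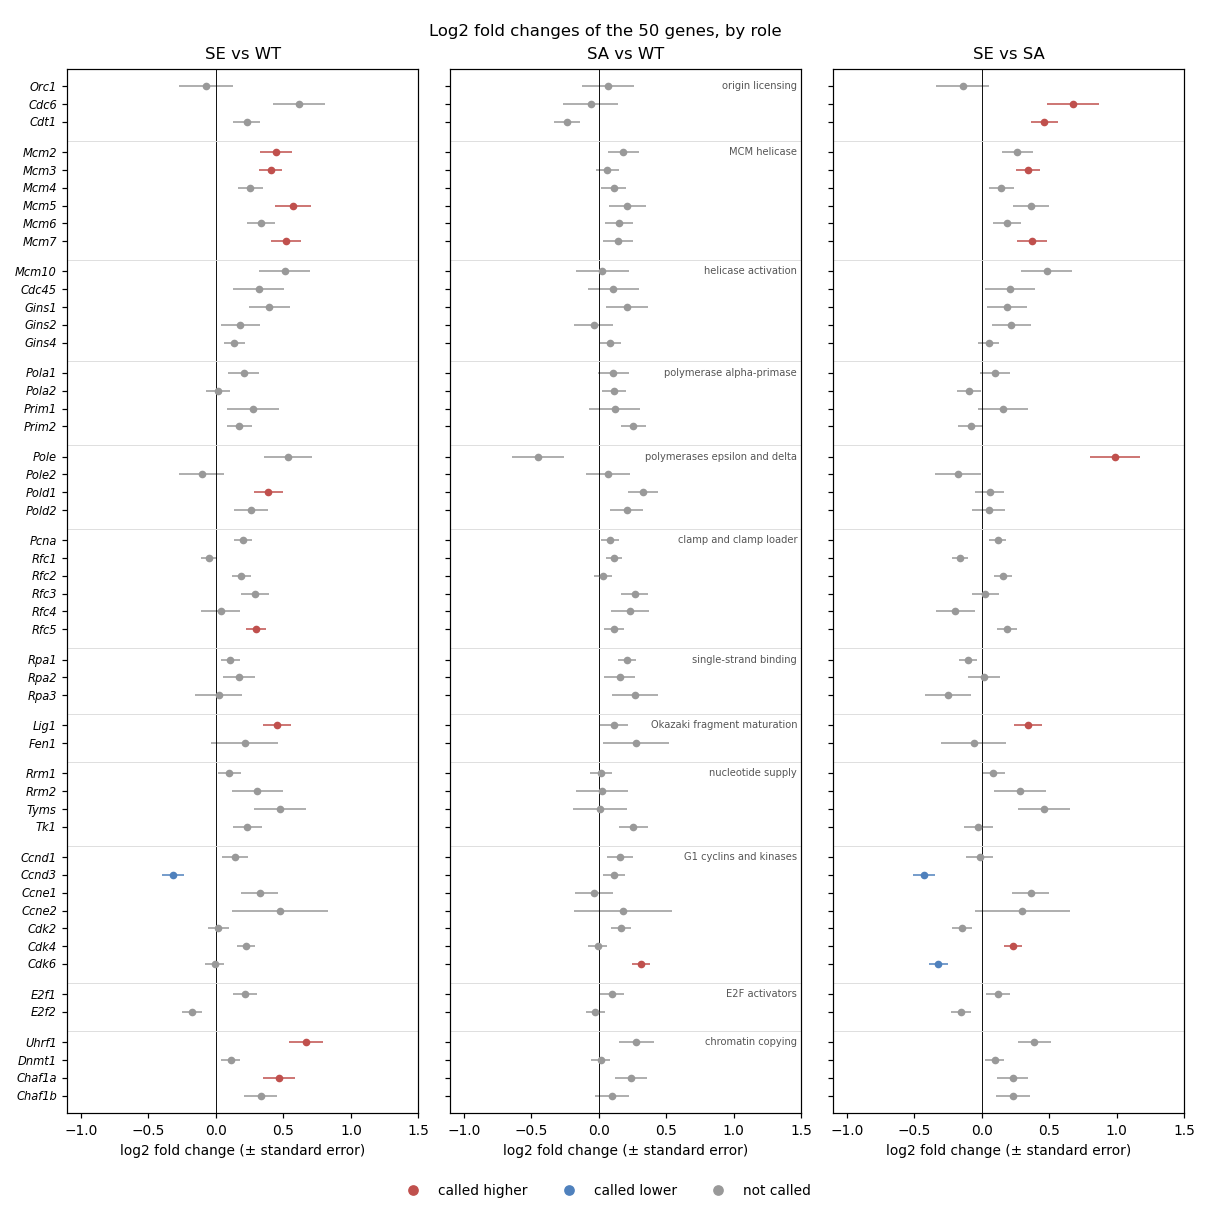
Log2 fold changes of all 50 genes (horizontal axis, with standard error) for SE vs WT, SA vs WT and SE vs SA, grouped by role from top to bottom; red marks genes called higher, blue genes called lower and grey genes not called. In SE vs WT 9 genes are red and 1 is blue, in SA vs WT only Cdk6 is coloured, and in SE vs SA 7 are red and 2 are blue.

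All 6 subunits of the MCM helicase, the ring that unwinds DNA at the fork, were higher in each SE library than in any WT library. That held for 10.1% of all tested genes. Of the 6 subunits, 4 rose by the test (66.7%, against 2.35% of all tested genes). Mcm5 (ENSMUSG00000005410, chromosome 8, 75109569 to 75128439, mm10) stood at 47.3, 39.0 and 46.1 CPM in SE libraries, 43.2, 26.6 and 33.0 CPM in SA libraries and 30.1, 31.4 and 27.7 CPM in WT libraries. SE1 and SE3 were highest, SE2 and SA1 came next to them, and SA2 was below every WT library. The rise in SE was 1.49-fold (log2 0.57 ± 0.13 standard error, adjusted p = 0.0216 by edgeR).

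Mcm7 (ENSMUSG00000029730, chromosome 5, 138164583 to 138172422) stood at 37.1, 27.8 and 30.6 CPM in SE libraries, against 27.3, 21.7 and 24.7 CPM in SA libraries and 22.1, 24.8 and 20.2 CPM in WT libraries. The SE libraries lay above all others. The rise was 1.43-fold over WT (adjusted p = 0.01 by edgeR) and 1.30-fold over SA (adjusted p = 0.0385 by edgeR). Mcm3 stood at 50.3, 43.6 and 44.9 CPM in SE libraries, 41.2, 32.9 and 35.5 CPM in SA libraries and 37.3, 32.9 and 34.5 CPM in WT libraries. Again no SA or WT library reached the SE range, and SA and WT overlapped. It rose 1.32-fold over WT (adjusted p = 0.0101 by edgeR) and 1.27-fold over SA (adjusted p = 0.0183 by edgeR).

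Mcm2 stood at 32.4, 28.8 and 31.8 CPM in SE libraries, 31.4, 21.4 and 24.4 CPM in SA libraries and 24.0, 24.0 and 20.3 CPM in WT libraries. SA1 stood within the SE range and the other SA libraries near WT. The rise in SE over WT was 1.36-fold (adjusted p = 0.0331 by edgeR). Mcm6, the most abundant subunit in CPM and per kilobase, stood at 83.1, 72.3 and 70.6 CPM in SE libraries, 78.8, 57.6 and 61.9 CPM in SA libraries and 65.2, 54.9 and 58.9 CPM in WT libraries. Its difference from WT missed the threshold, with a log2 value of 0.33 (95% interval 0.12 to 0.55, adjusted p = 0.0731 by edgeR). Mcm4 stood at 33.1, 28.5 and 29.6 CPM in SE libraries, 29.9, 27.6 and 24.9 CPM in SA libraries and 28.2, 24.4 and 23.6 CPM in WT libraries, with a log2 difference of 0.26 between SE and WT (95% interval 0.06 to 0.45, adjusted p = 0.131 by edgeR). For both genes SA1 lay within the SE range.

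The calls of Mcm3 and Mcm7 in SE vs WT ended without SE1 and without WT3 (highest adjusted p = 0.0816 and 0.089 by edgeR). Those of Mcm2 and Mcm5 also ended without SE3, without WT1 and with either pair WT2 and SE3 or WT1 and SE2 left out, that of Mcm5 without WT2 as well, and that of Mcm2 with library totals in place of TMM (highest adjusted p = 0.19 and 0.281 by edgeR). In SE vs SA the calls of Mcm3 and Mcm7 ended without SA2, SA3 or SE1 and with library totals, and that of Mcm7 also without WT3 and among genes of at least 5 CPM (highest adjusted p = 0.12 and 0.241 by edgeR). Mean CPM per kilobase of merged exons over the 9 libraries was 14.4 for Mcm6, 10.5 for Mcm3 and 9.03 for Mcm5. It was 7.73 for Mcm4, 5.93 for Mcm7 and 3.81 for Mcm2. Merged exons span 6956 bases for Mcm2 and 3589 for Mcm4, whose mean CPM was 26.5 and 27.8. The gap between these 2 genes per kilobase thus comes mostly from the annotated length.

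**Figure D2:**
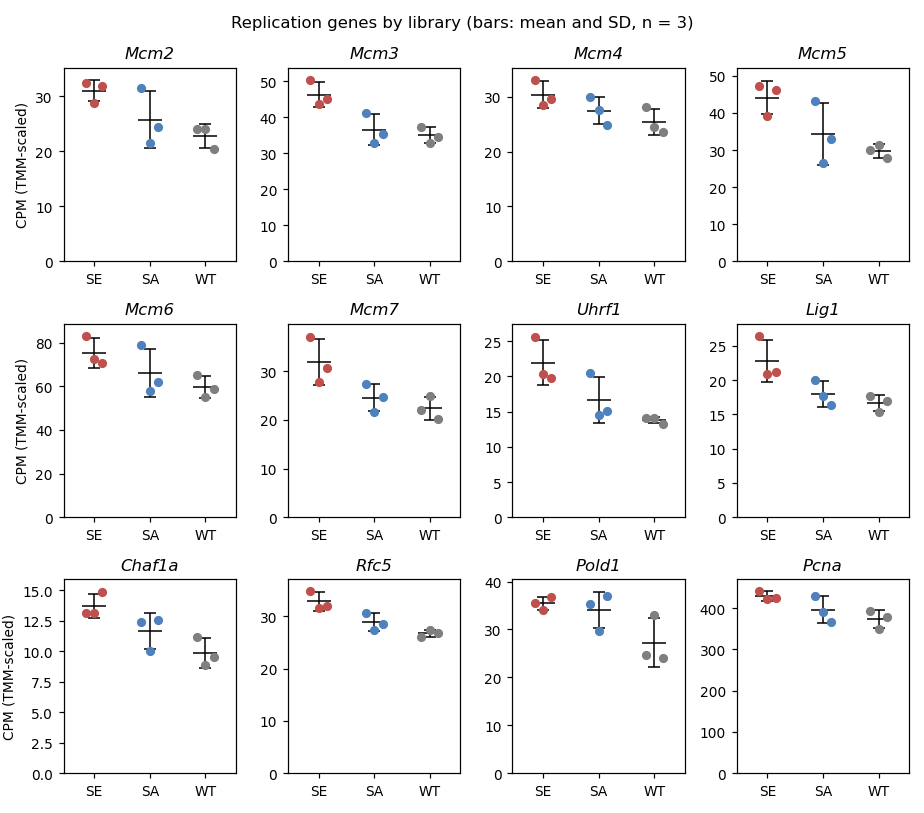
CPM of 12 replication genes in each library (dots), by genotype in the order SE, SA and WT, with group mean and SD (n = 3); each vertical axis starts at 0. The 3 SE dots lie above the 3 WT dots in every panel, and for Mcm3, Mcm7, Lig1, Chaf1a and Rfc5 they also lie above the SA dots.

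Of the 3 origin licensing genes, Cdt1 and Cdc6 were called higher in SE than in SA (66.7%, against 4.77% of all tested genes), and Orc1 was not called. Cdt1, which brings MCM to origins, stood at 59.5, 49.2 and 61.9 CPM in SE libraries, 43.6, 37.1 and 43.1 CPM in SA libraries and 44.3, 55.5 and 46.6 CPM in WT libraries. The SE libraries were above the SA libraries, WT2 lay within the SE range, and all 3 SA libraries were below all WT libraries. It rose 1.38-fold in SE over SA (log2 0.46 ± 0.10 standard error, adjusted p = 0.00547 by edgeR), a call kept in all 18 other fits. Against WT the log2 differences were 0.23 in SE (adjusted p = 0.216 by edgeR) and -0.24 in SA (adjusted p = 0.269 by edgeR).

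Cdc6, the ATPase that works with CDT1, was the lowest of the 50 per kilobase of merged exons, though Orc1 and Fen1 had lower mean CPM. It stood at 4.17, 3.49 and 3.09 CPM in SE libraries. The SA libraries stood at 2.56, 2.24 and 1.90 CPM and the WT libraries at 2.80, 2.06 and 2.09 CPM. Every SE library was above every SA and WT library. It rose 1.60-fold over SA (adjusted p = 0.0349 by edgeR), and its log2 difference from WT was 0.62 (95% interval 0.21 to 1.02, adjusted p = 0.0788 by edgeR). The SE vs SA call ended with DESeq2, with library totals, without any 1 of the SA libraries and without SE1 or SE2, alone or with WT1 (highest adjusted p = 0.173 by edgeR). Orc1, the large subunit of the origin recognition complex, overlapped across the 3 genotypes at 2.23 ± 0.378, 2.45 ± 0.388 and 2.34 ± 0.0964 CPM in SE, SA and WT (SD, n = 3 each), with a log2 difference of -0.14 between SE and SA (adjusted p = 0.737 by edgeR).

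The helicase activators Mcm10, Cdc45, Gins1, Gins2 and Gins4 had 0 calls by edgeR in SE vs WT, where 2.35% of all tested genes were called higher and 2.69% lower. By raw p under 0.05, 2 were higher, beside 9.02% of all tested genes. All 5 log2 fold changes were positive, from 0.14 to 0.51. For 4 of the 5 the SE libraries lay above the WT libraries (80%, beside 10.1% of all tested genes), and Cdc45 was the exception. Gins4 was the most abundant of them, at 20.3, 20.1 and 19.5 CPM in SE libraries, 19.8, 19.2 and 18.9 CPM in SA libraries and 19.1, 17.9 and 17.6 CPM in WT libraries; SE lay above WT and overlapped SA. Gins2 shares 67.3% of its exon bases with Gse1 on the other strand, and since the sources used here do not give the strand setting, its level is uncertain.

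Among the polymerases, Pole, the catalytic subunit of leading-strand polymerase epsilon, had the largest difference between the mutants of any of the 50 genes. Pole (ENSMUSG00000007080, chromosome 5, 110286306 to 110337474) stood at 10.0, 13.8 and 10.2 CPM in SE libraries, 4.85, 6.27 and 6.01 CPM in SA libraries and 6.03, 10.6 and 7.17 CPM in WT libraries. SE and SA did not overlap, WT2 lay within the SE range, and WT1 lay within the SA range. The SE level was 1.98-fold that of SA (log2 0.99 ± 0.19 standard error, adjusted p = 0.00234 by edgeR), a call kept in every fit run. Its log2 differences from WT, 0.54 in SE and -0.45 in SA, missed the threshold (adjusted p = 0.102 and 0.28 by edgeR). Pole2, a smaller subunit of the same enzyme, stood at 4.46 ± 1.003, 5.06 ± 0.777 and 4.82 ± 0.280 CPM in SE, SA and WT, with a log2 difference of -0.18 between the mutants (95% interval -0.53 to 0.18).

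Pold1, the catalytic subunit of lagging-strand polymerase delta, stood at 35.5, 34.1 and 36.8 CPM in SE libraries, 35.3, 29.8 and 37.0 CPM in SA libraries and 24.7, 33.1 and 24.0 CPM in WT libraries. WT2 stood well above WT1 and WT3 and within the SA range. It rose 1.31-fold in SE over WT (adjusted p = 0.0494 by edgeR), close to the threshold, and the call ended in 13 of 18 other fits (highest adjusted p = 0.262 by edgeR). In SA its log2 difference from WT was of like size at 0.33 but missed the threshold (adjusted p = 0.129 by edgeR). Of the 4 genes of polymerase alpha-primase, which lays down primers, 0 were called by edgeR in any comparison. Over all tested genes, 2.35%, 1.97% and 4.77% were called higher in SE vs WT, SA vs WT and SE vs SA, and 2.69%, 2.1% and 5.42% lower. By raw p under 0.05, the 4 genes gave 0 in SE vs WT, 1 higher in SA vs WT and 0 in SE vs SA. Pola2, the most abundant, stood at 17.4, 19.2 and 19.1 CPM in SE libraries, 20.9, 18.9 and 19.7 CPM in SA libraries and 16.7, 20.0 and 18.5 CPM in WT libraries, and the genotypes overlapped.

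Pcna, the sliding clamp, was by far the most abundant of the 50 at 167 CPM per kilobase on average, ahead of Cdk4 at 25.4. It stood at 443, 423 and 424 CPM in SE libraries, 431, 391 and 367 CPM in SA libraries and 393, 351 and 377 CPM in WT libraries. The SE libraries lay above the WT libraries by a small margin and SA overlapped both. The log2 difference between SE and WT was 0.20 (95% interval 0.06 to 0.34, adjusted p = 0.0912 by edgeR). Of the loader subunits, Rfc5 stood at 34.9, 31.7 and 32.0 CPM in SE libraries, 30.7, 27.4 and 28.6 CPM in SA libraries and 26.0, 27.4 and 26.9 CPM in WT libraries. SE lay above both other genotypes. Rfc5 rose 1.23-fold in SE over WT (adjusted p = 0.0253 by edgeR), a call that ended without SE1, WT1 or WT3, without WT1 and SE2, and when SA libraries were dropped (highest adjusted p = 0.144 by edgeR). It shares 10.7% of its exon bases with Wsb2, so the level of Rfc5 is uncertain. Wsb2 was also called higher in SE than in WT (log2 0.23, adjusted p = 0.0451 by edgeR). Rfc1, the large loader subunit, took another course, at 55.6 ± 1.16, 62.2 ± 1.37 and 57.6 ± 0.772 CPM in SE, SA and WT, with SE below and SA above every WT library and no call.

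Lig1, which joins Okazaki fragments (ENSMUSG00000056394, chromosome 7, 13277283 to 13311433), stood at 26.4, 20.9 and 21.3 CPM in SE libraries, 20.1, 17.7 and 16.3 CPM in SA libraries and 17.7, 15.4 and 16.9 CPM in WT libraries. No SA or WT library reached the SE range. It rose 1.37-fold over WT (adjusted p = 0.0167 by edgeR) and 1.27-fold over SA (adjusted p = 0.0466 by edgeR). The first call ended without SE1 and without WT3 (highest adjusted p = 0.139 by edgeR), and the second without SA2, SA3, SE1 or WT3, with library totals and among genes of at least 5 CPM (highest adjusted p = 0.279 by edgeR). Fen1, the flap nuclease of the same step, was low at 2.35 ± 0.433, 2.41 ± 0.916 and 2.02 ± 0.0534 CPM in SE, SA and WT, but 78.8% of its exon bases overlap the antisense gene Gm10143, so its level is uncertain.

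Rpa1, the large subunit of the single-strand binding protein RPA, stood at 57.8, 50.8 and 51.3 CPM in SE libraries, 57.2, 57.0 and 57.7 CPM in SA libraries and 51.0, 47.9 and 49.5 CPM in WT libraries. Here the SA libraries were above WT and overlapped SE, with a log2 difference from WT of 0.21 (95% interval 0.07 to 0.35, adjusted p = 0.107 by edgeR). Rpa2 and Rpa3 were not called. Rrm1, the large subunit of ribonucleotide reductase, which makes deoxynucleotides, stood at 43.8, 39.3 and 39.0 CPM in SE libraries, 41.7, 38.0 and 35.5 CPM in SA libraries and 42.2, 35.6 and 35.9 CPM in WT libraries, with overlap throughout. Rrm2, Tyms and Tk1, also of nucleotide supply, were not called, and Tyms alone of these 4 had SE libraries entirely above WT (5.02 ± 0.963 against 3.66 ± 0.642 CPM, SD, n = 3 each).

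Of the 9 genes that rose in SE over WT, Uhrf1 was the only one called in every fit run. UHRF1 brings the methyltransferase DNMT1 to newly copied DNA. Uhrf1 (ENSMUSG00000001228, chromosome 17, 56303321 to 56323486) stood at 25.6, 20.3 and 19.8 CPM in SE libraries, 20.5, 14.5 and 15.1 CPM in SA libraries and 14.1, 14.0 and 13.3 CPM in WT libraries. WT was tight and below every other library, and SA1 lay within the SE range. The rise in SE over WT was 1.59-fold (log2 0.67 ± 0.13 standard error, adjusted p = 0.00459 by edgeR), with a highest adjusted p of 0.0457 by edgeR in the other fits. Between SE and SA the log2 difference was 0.39 (adjusted p = 0.0555 by edgeR). Dnmt1 itself stood at 139.6, 138 and 152 CPM in SE libraries, 141, 121 and 139.7 CPM in SA libraries and 125, 143 and 130 CPM in WT libraries. The genotypes overlapped, with a log2 difference of 0.11 between SE and WT (95% interval -0.04 to 0.26).

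Chaf1a, the large subunit of the chromatin assembly factor that places histones on new DNA, stood at 13.1, 13.2 and 14.8 CPM in SE libraries, 12.4, 9.99 and 12.6 CPM in SA libraries and 11.2, 8.86 and 9.49 CPM in WT libraries. SE lay above both other genotypes, which overlapped. It rose 1.38-fold (adjusted p = 0.0266 by edgeR), a call that ended without SE1, SE3, WT2 or WT3 or the pair WT2 and SE3 (highest adjusted p = 0.136 by edgeR). It shares 52.5% of its exon bases with Ubxn6 on the other strand, so the level of Chaf1a is uncertain. The log2 difference of Ubxn6 between SE and WT was -0.13 (adjusted p = 0.476 by edgeR). Chaf1b, the partner of Chaf1a, stood at 9.62 ± 1.58, 8.20 ± 0.416 and 7.66 ± 0.386 CPM in SE, SA and WT and was not called.

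Of the 7 cyclins and kinases of G1, 1 fell in SE relative to WT (14.3%, against 2.69% of all tested genes) and 1 rose in SA relative to WT (14.3%, against 1.97%). In SE relative to SA 1, Cdk4, rose (14.3%, against 4.77%) and 2 fell (28.6%, against 5.42%). Alanine at Ser807 went with 1 call among the 50 genes relative to WT, a rise in Cdk6, and 0 falls by edgeR (0 by DESeq2; by raw p under 0.05, 8 were higher and 2 lower, beside 6.69% and 7% of all tested genes). That is 2% of the genes, close to the 1.97% of all tested genes called higher and 2.1% called lower. Cdk6 (ENSMUSG00000040274, chromosome 5, 3341485 to 3531008), a partner of D-type cyclins, stood at 43.3, 44.8 and 39.8 CPM in SE libraries, 53.9, 52.7 and 53.2 CPM in SA libraries and 45.3, 40.2 and 43.1 CPM in WT libraries. The SA libraries were tight and above all others, and SE and WT overlapped. Cdk6 rose 1.24-fold in SA over WT (log2 0.31 ± 0.07 standard error, adjusted p = 0.0132 by edgeR), a call that ended without SA1, SA3 or WT3 (highest adjusted p = 0.075 by edgeR). It was 1.25-fold lower in SE than in SA (adjusted p = 0.00612 by edgeR), kept in every fit run, and its log2 difference between SE and WT was -0.01 (95% interval -0.16 to 0.14).

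Ccnd3, cyclin D3, was the member that fell in SE. It stood at 19.5, 17.8 and 20.1 CPM in SE libraries, 25.7, 25.9 and 25.5 CPM in SA libraries and 22.6, 25.8 and 23.3 CPM in WT libraries. Every SE library was below every other library, and WT2 lay among the SA values. It was 1.35-fold lower in SE than in SA (adjusted p = 0.0023 by edgeR), kept in every fit run. It was 1.25-fold lower in SE than in WT (adjusted p = 0.0303 by edgeR), a call that ended in 8 of 18 other fits, among them those with SA left out and without SA1, SE1, SE2, WT2 or WT3 in turn (highest adjusted p = 0.111 by edgeR).

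Cdk4, the other partner of D-type cyclins and the second most abundant of the 50 per kilobase, stood at 94.1, 85.9 and 94.6 CPM in SE libraries, 80.1, 82.6 and 71.2 CPM in SA libraries and 81.7, 78.5 and 74.9 CPM in WT libraries. SE lay above both other genotypes, which overlapped. It rose 1.17-fold in SE over SA (adjusted p = 0.0415 by edgeR), but the call ended in 9 of 18 other fits (highest adjusted p = 0.206 by edgeR), and the log2 difference from WT was 0.22 (adjusted p = 0.0737 by edgeR). Cdk4 shares 19.7% of its exon bases with Tspan31, so the level of Cdk4 is uncertain. Tspan31 was not called. Ccnd1, cyclin D1, more abundant per kilobase than Ccnd3, stood at 61.7, 54.8 and 52.4 CPM in SE libraries, 66.7, 49.9 and 53.9 CPM in SA libraries and 55.7, 47.8 and 49.7 CPM in WT libraries. SA1 was the highest and WT2 the lowest, all 3 genotypes overlapped, and the log2 difference between SE and WT was 0.14 (95% interval -0.07 to 0.35). Ccnd1 shares 23.4% of its exon bases with LTO1, which was not called (log2 0.09 in SE vs WT, adjusted p = 0.585 by edgeR), so its level is uncertain.

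Ccne1, cyclin E1, which drives S phase entry with CDK2, stood at 7.06, 6.11 and 5.92 CPM in SE libraries, 5.38, 4.38 and 5.09 CPM in SA libraries and 5.55, 5.23 and 4.47 CPM in WT libraries. SE was above both other genotypes, but the differences missed the threshold (log2 0.32 against WT, adjusted p = 0.216 by edgeR, and 0.36 against SA, adjusted p = 0.121 by edgeR). E2f1 stood at 40.01, 37.4 and 38.4 CPM in SE libraries, 37.3, 31.6 and 37.8 CPM in SA libraries and 29.7, 37.3 and 33.1 CPM in WT libraries. The SE libraries lay just above WT2, and the log2 difference was 0.22 (95% interval 0.03 to 0.40, adjusted p = 0.196 by edgeR). E2f2 ran the other way at 26.7 ± 0.280, 29.7 ± 1.56 and 30.2 ± 1.51 CPM in SE, SA and WT, with SE below every other library and no call. Ccne2 and Cdk2 were not called in any comparison.

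**Figure D3:**
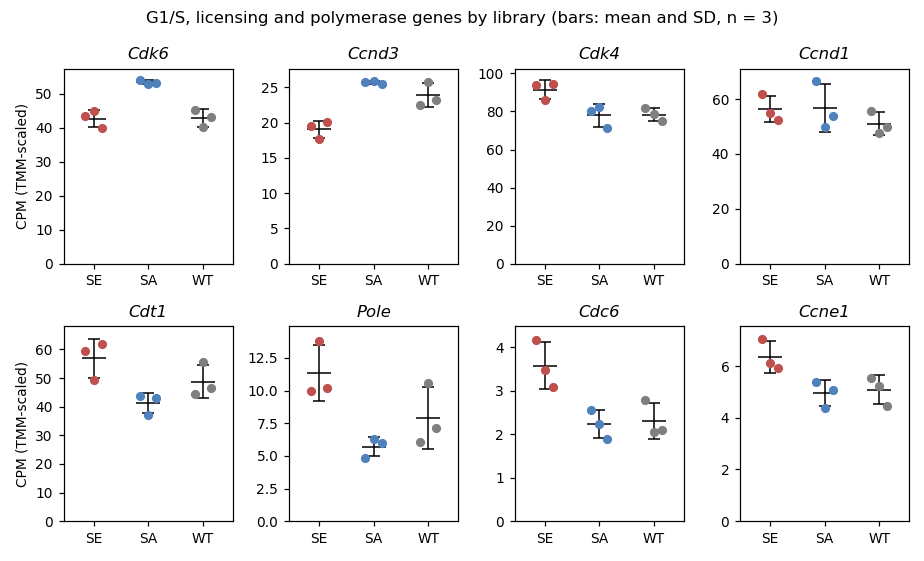
CPM of 8 cyclin, kinase, licensing and polymerase genes in each library (dots), by genotype in the order SE, SA and WT, with group mean and SD (n = 3); each vertical axis starts at 0. Cdk6 is high in the 3 SA libraries, Ccnd3 is low in the 3 SE libraries, and Cdt1, Pole and Cdc6 are higher in SE than in SA.

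The direct comparison of the mutants called 7 of the 50 genes higher in SE than in SA and 2 lower. The 7 make up 14%, against 4.77% of all tested genes called higher, and the 2 make up 4%, against 5.42% called lower. The risen genes were Cdc6, Cdt1, Mcm3, Mcm7, Pole, Lig1 and Cdk4, and the lower ones Ccnd3 and Cdk6. By raw p under 0.05, 15 were higher and 3 lower, beside 11.4% and 11.3% of all tested genes. The median log2 difference was 0.13, beside -0.003 over all tested genes, and 35 of 50 were positive (70%, beside 49.4% of all). The SE libraries lay above the SA libraries for 11 genes (22%, beside 14.2% of all tested genes) and below them for 5 (14.1% of all). The count of higher genes was 2 with library totals in place of TMM, 3 among genes of at least 5 CPM, 2 without SE1, SA2 or SA3 in turn and 4 without WT3. The calls of Cdt1, Pole, Ccnd3 and Cdk6 held in all 18 other fits.

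Most of the 50 genes had small positive differences in SA relative to WT. The median log2 fold change of the 50 in SA vs WT was 0.11, beside 0.001 over all tested genes, and 43 of 50 were positive (86%, beside 50.4% of all). It was 0.04 without SA1 and 0.16 without SA2. SA libraries were entirely above WT libraries for 9 genes (18%, beside 9.6% of all tested genes), among them Cdk6, Cdk2, Rpa1, Uhrf1 and Rfc3, and entirely below for Cdt1 alone (9.71% of all). In the same SA libraries 10 mesothelial and fibroblast markers summed to 35.7, 40.7 and 36.9 CPM, compared with 7.99, 7.33 and 11.4 CPM in SE libraries and 3.72, 4.64 and 5.63 CPM in WT libraries. Few genes carried these sums: 3 of the 10, among them Msln and Wt1, had 0 counts in every library, and 4 passed the filter. Of those 4, 3 were called higher in SA than in WT (75%, against 1.97% of all tested genes). The part of mesothelial cells or fibroblasts in the levels given here was not tested. By order of group means, 28 of the 50 genes ran from SE over SA to WT, 9 from SA over SE to WT, 7 from SE over WT to SA and 6 in other orders.

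Libraries of 1 genotype differed in these genes. The median deviation of the 50 genes from their 9-library means, on the log2 scale, was 0.20, 0.08 and 0.10 in the SE libraries, 0.14, -0.11 and -0.04 in the SA libraries and -0.06, -0.10 and -0.14 in the WT libraries. SA1 therefore stood among the SE libraries, and the other SA libraries among or near WT. SE1 was the highest of the 9 libraries for 25 genes and SA1 for 11. A WT library was the highest for 1 gene and the lowest for 27. Summed over the 50 genes, the level was 1753 ± 69.0 CPM in SE, 1626 ± 113 CPM in SA and 1522 ± 31.2 CPM in WT (SD, n = 3 each). The third component of log2 CPM over all genes, with 14.6% of the variance, set WT2 and SE3 apart from WT1 and SE2. Without WT2 and SE3 the count of genes called higher in SE than in WT was 12, and without WT1 and SE2 it was 5.

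**Figure D4:**
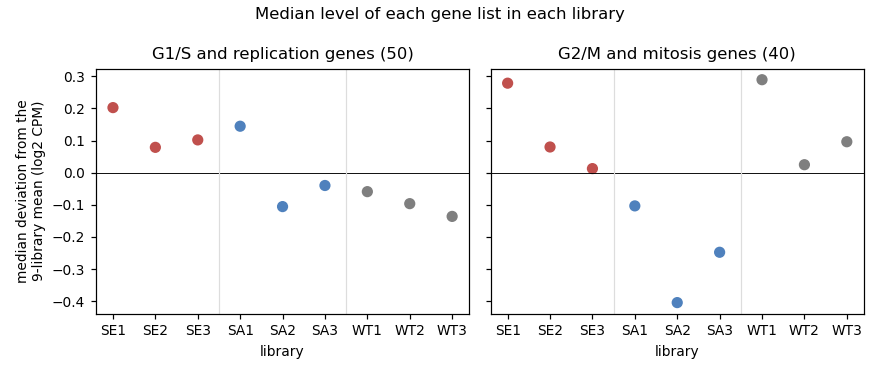
Median deviation from the 9-library mean (log2 CPM, vertical axis) of the 50 G1/S and replication genes (left) and of 40 G2/M and mitosis genes (right) in each library, ordered SE, SA and WT. On the left the SE libraries and SA1 stand above 0 and the WT libraries below; on the right the 3 SA libraries stand below 0 and all SE and WT libraries above.

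Genes of mitosis were read beside the replication genes. Of 40 G2/M and mitosis genes, 0 rose and 1, Cenpa, fell in SE relative to WT by edgeR (0% and 2.5%, near the 2.35% and 2.69% of all tested genes). In the same comparison 1 was higher and 5 lower by raw p under 0.05, and 0 higher and 1 lower by DESeq2, with a median log2 fold change of -0.01. In SA 0 rose and 14 fell relative to WT (35%, against 2.1% of all tested genes; 0 higher and 26 lower by raw p under 0.05, 0 higher and 14 lower by DESeq2), with a median of -0.40. The count in SA was 9 without SA1, 6 without SA2, 7 without WT1, 9 without WT3, 7 without WT1 and SE2, and 7 of 25 among genes of at least 5 CPM, and Cenpa lost its call in SE without WT3 (adjusted p = 0.0574 by edgeR). In SE vs SA 16 rose and 0 fell by edgeR (40%, against 4.77% of all tested genes; 23 higher and 0 lower by raw p under 0.05, 16 and 0 by DESeq2), with a median of 0.43, and the count was 5 without SE1, 8 without SA2, 8 without SA3 and 8 of 25 among genes of at least 5 CPM. The difference between the mitotic and the replication list was not tested.

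Ccnb1, cyclin B1, stood at 8.97, 7.86 and 8.69 CPM in SE libraries, 4.72, 4.89 and 4.57 CPM in SA libraries and 8.67, 9.51 and 7.63 CPM in WT libraries. SA lay well below the other genotypes, which overlapped. It was 1.81-fold lower in SA than in WT (adjusted p = 0.000329 by edgeR) and in SE it was 1.80-fold above SA (adjusted p = 0.00025 by edgeR). Both calls held in all 18 other fits. Ccnb2, cyclin B2, stood at 8.09, 6.63 and 7.59 CPM in SE libraries, 4.94, 4.03 and 2.93 CPM in SA libraries and 9.23, 10.1 and 9.91 CPM in WT libraries, and the 3 genotypes did not overlap. It was 2.43-fold lower in SA than in WT (adjusted p = 4.63e-05 by edgeR) and in SE it was 1.87-fold above SA (adjusted p = 0.00127 by edgeR), again in all 18 other fits. Hmmr, a protein of the mitotic spindle, stood at 5.88, 4.25 and 3.93 CPM in SE libraries, 2.51, 1.99 and 2.42 CPM in SA libraries and 5.75, 4.58 and 4.93 CPM in WT libraries. It was 2.21-fold lower in SA than in WT (adjusted p = 0.000879 by edgeR), a call kept in all 17 other fits that tested it, and SE overlapped WT. Top2a, the topoisomerase that untangles chromosomes, stood at 35.1, 39.4 and 35.5 CPM in SE libraries, 23.8, 21.6 and 24.0 CPM in SA libraries and 36.5, 26.6 and 29.3 CPM in WT libraries. It was 1.34-fold lower in SA than in WT (adjusted p = 0.0231 by edgeR) and in SE it was 1.58-fold above SA (adjusted p = 0.000378 by edgeR), a call held in all 18 other fits. Mki67, the proliferation marker Ki-67, stood at 45.4, 43.7 and 40.4 CPM in SE libraries, 38.7, 31.2 and 37.4 CPM in SA libraries and 52.1, 42.9 and 42.4 CPM in WT libraries. It was 1.28-fold lower in SA than in WT (adjusted p = 0.0375 by edgeR) with a log2 difference of -0.09 between SE and WT (95% interval -0.28 to 0.11). In SA vs WT the call of Top2a ended in 7 and that of Mki67 in 10 of 18 other fits, in both without any 1 of the SA libraries and without WT1 or WT3 (highest adjusted p = 0.127 and 0.219 by edgeR).

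**Figure D5:**
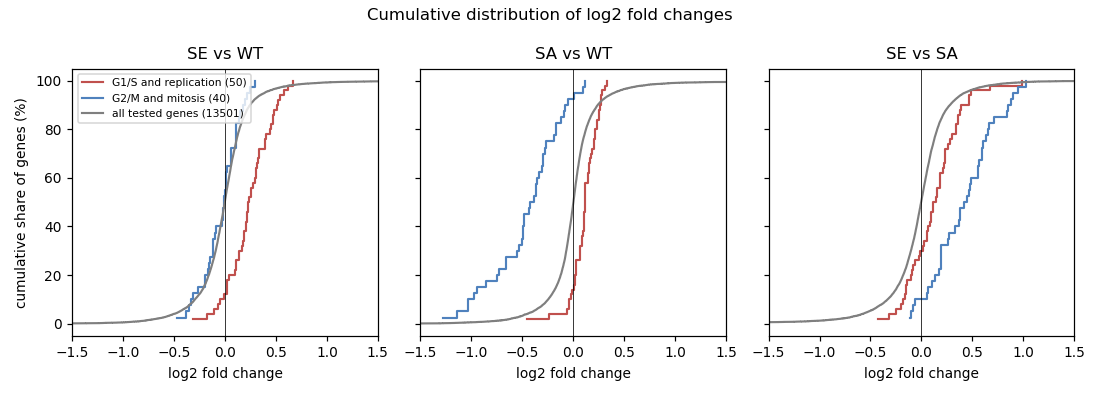
Cumulative share of genes (vertical axis, %) by log2 fold change (horizontal axis) for the 50 G1/S and replication genes, 40 G2/M and mitosis genes and all 13501 tested genes, in SE vs WT, SA vs WT and SE vs SA. The replication curve lies to the right in SE vs WT (median 0.23) while the mitotic curve follows all genes (median -0.01), and the mitotic curve lies to the left in SA vs WT (median -0.40).

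Beyond the 50 genes, 48 other replication genes (further origin, fork and nucleotide factors) and 26 other G1/S regulators were read. 1 gene did not pass the filter. Of the 47 tested, 0 rose or fell in SE vs WT by edgeR and by DESeq2 (12 higher and 1 lower by raw p under 0.05). The median was 0.10, and 12 had SE libraries entirely above WT (25.5%, beside 10.1% of all tested genes). Without WT1 the counts were 3 higher and 0 lower, without SE3 they were 2 and 0, without WT2 they were 0 and 1, and without WT2 and SE3 they were 3 and 1. In SE vs SA 2 rose and 1 fell (4.26% and 2.13%, against 4.77% and 5.42% of all tested genes), but 6 were higher and 1 lower without WT2 and SE3. Clspn, a checkpoint adaptor that travels with the fork, stood at 8.19, 7.68 and 7.49 CPM in SE libraries and 4.19, 4.84 and 5.70 CPM in SA libraries, 1.59-fold higher in SE (adjusted p = 0.014 by edgeR). Dut, which keeps uracil out of DNA, was 1.43-fold higher and Dna2, a nuclease and helicase, 1.18-fold lower (adjusted p = 0.0239 for both by edgeR). Each of these 3 calls ended without SE1 or SA2, that of Clspn also without SA1, those of Dut and Dna2 without SA3, and that of Dna2 without SE2, alone or with WT1 (highest adjusted p = 0.0883, 0.128 and 0.102 for Clspn, Dut and Dna2 by edgeR).

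Of the 26 other G1/S regulators, 1 rose and 2 fell in SE vs WT (3.85% and 7.69%, against 2.35% and 2.69% of all tested genes). Myc, a transcription factor that drives G1 growth, stood at 55.6, 49.5 and 49.95 CPM in SE libraries, 48.3, 37.7 and 44.1 CPM in SA libraries and 36.6, 37.1 and 32.5 CPM in WT libraries. SE lay above every SA and WT library, and SA lay above WT. Myc rose 1.46-fold in SE over WT (adjusted p = 0.0012 by edgeR), kept in every fit run. Cdkn1b, which encodes the CDK inhibitor p27, stood at 28.4, 33.4 and 25.8 CPM in SE libraries, 37.6, 39.6 and 35.3 CPM in SA libraries and 41.3, 34.2 and 38.8 CPM in WT libraries. It was 1.31-fold lower in SE than in WT (adjusted p = 0.0216 by edgeR) and 1.29-fold lower than in SA (adjusted p = 0.0207 by edgeR). Both calls ended without SE1 and without SE3, the first also without WT1 or WT3 and with SA left out, and the second without SA1 or SA2 (highest adjusted p = 0.111 and 0.098 by edgeR). Tfdp2, a dimer partner of E2F factors, was 1.37-fold lower in SE than in WT (adjusted p = 0.0427 by edgeR), a call that ended in 9 of 18 other fits (highest adjusted p = 0.216 by edgeR).

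In SA vs WT 1 of these regulators rose and 1 fell (3.85% each, against 1.97% and 2.1% of all tested genes). Ccnd2, cyclin D2, stood at 0.294, 0.175 and 0.209 CPM in SE libraries, 1.06, 0.662 and 0.771 CPM in SA libraries and 0.0400, 0.117 and 0.140 CPM in WT libraries, from 1 to 24 counts a library. SA was above all other libraries, at levels far below those of Ccnd1, and the rise over WT was 8.37-fold (adjusted p = 0.000928 by edgeR), a size that rests on few WT counts and on the prior count. Ccnd2 moved with the few mesothelial and fibroblast markers that passed the filter, given above, whose part in it was not tested. Ccna2, cyclin A2 of S phase and G2, stood at 10.7, 8.38 and 8.33 CPM in SE libraries, 7.40, 4.59 and 5.91 CPM in SA libraries and 10.0, 8.04 and 8.89 CPM in WT libraries, and was 1.51-fold lower in SA than in WT (adjusted p = 0.045 by edgeR), a call that ended in 8 of 18 other fits (highest adjusted p = 0.232 by edgeR). In SE vs SA 2 of the regulators rose and 2 fell (7.69% each, against 4.77% and 5.42% of all). Ccna2 and Cks1b, a small CDK-binding protein, were 1.53-fold and 1.41-fold higher (adjusted p = 0.0211 and 0.0462 by edgeR). The call of Ccna2 ended without SA2, SA3 or SE1 and that of Cks1b in 9 of 18 other fits (highest adjusted p = 0.141 and 0.206 by edgeR). Ccnd2 and Cdkn1b were lower in SE than in SA, Ccnd2 by 3.59-fold (adjusted p = 0.00955 by edgeR), a call that ended without SA1 (adjusted p = 0.063 by edgeR).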

How the data were processed

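The authors deposited raw read counts per Ensembl gene for 9 libraries of poly(A) RNA. Reads were processed with HISAT2 2.1.0 and featureCounts on mm10, per the submitters' processing notes; the sources used here do not give the annotation release, strand setting or treatment of multi-mapped reads. Symbols and positions came from GENCODE M21, which held 55141 of the 55401 IDs. All 37 mitochondrial genes had 0 counts. Groups followed the genotype labels, and the closest 2 libraries of a genotype differed by more than counting noise (chi-square per degree of freedom of 3.98 or more).

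In R 4.3.3, edgeR 4.0.16 (filterByExpr with a minimum count of 10 and total of 15, TMM, robust quasi-likelihood, 6 residual degrees of freedom) tested 13501 genes in 1 fit of genotype. The biological coefficient of variation was 6.75%. The script was tested on simulated counts. CPM values use TMM-scaled totals, and levels per kilobase divide CPM by merged exon length. That length joins the exons of every annotated transcript of a gene and can exceed the length of its RNA. Ranks of genes per kilobase therefore depend on the annotation. Alternatives were DESeq2 1.42.0, RLE factors, library totals, no filter, genes of at least 5 CPM, a fit of the 2 compared genotypes alone, a replicate block, each library left out in turn, and the pairs WT2 with SE3 and WT1 with SE2 left out.

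The members and lists were chosen with earlier results of these data known. Values in every library are given for members called in any comparison, the member of each role with the highest mean CPM, and Mcm2 to Mcm7, Pcna, Ccnd1, Ccne1 and E2f1. Of the other lists, called genes are named, at most 3 in each direction by smallest adjusted p, with Mki67, Top2a and Ccnb1. Orc1, Pole2, Rfc1, Fen1, Tyms, E2f2, Chaf1b and the marker genes were added after their values were seen. Promoter sequences are from RefSeq.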

Additional observations from a re-analysis of the deposited data

How the results depend on the processing

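The count of the 50 genes higher in SE vs WT, 9 with all libraries, was 14 with no filter on low counts, 5 without WT1 and SE2, and 1 to 11 with 1 library left out. The 1 gene lower in SE vs WT (Ccnd3) became 0 with only the compared genotypes fitted and without WT1 and SE2, and 0 to 1 with 1 library left out. In SA vs WT the count of higher genes was 2 with no filter, 3 without WT2 and SE3, and 0 to 2 with 1 library left out, and that of lower genes was 1 with no filter and 1 without WT1 and SE2. In SE vs SA the count of higher genes was 2 with library totals, 3 among genes of at least 5 CPM, 11 without WT2 and SE3, and 2 to 9 with 1 library left out. Over all genes, SA vs WT gave 903 calls without WT2 and SE3 and 297 to 652 with 1 library left out. SE vs WT gave 438 with only the compared genotypes fitted, 1215 without WT2 and SE3, 372 without WT1 and SE2 and 292 to 1097 with 1 library left out, and SE vs SA gave 781 to 1762 with 1 library left out. The cause of these shifts was not tested. The medians over the 50 genes kept their sign in every fit, at 0.19 to 0.28 in SE vs WT, 0.04 to 0.16 in SA vs WT and 0.08 to 0.18 in SE vs SA. Library totals moved the median of all genes to 0.03, -0.02 and -0.05 in SA vs WT, SE vs WT and SE vs SA.

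The replicate numbers did not pair the libraries. Deviations from the genotype means correlated at -0.19 to 0.11 in 9 same-number pairs, with 1 above 0.1, and at -0.26 to 0.27 in 18 other pairs. With the replicate block, the counts of the 50 genes were 10 higher and 0 lower in SE vs WT (Ccnd3 at an edgeR adjusted p of 0.0557), 1 higher and 0 lower in SA vs WT, and 9 higher and 2 lower in SE vs SA, and all genes called were 568, 500 and 1189.

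Signs turned only for log2 differences that were not called. In SE vs WT, library totals gave -0.0012 for Pola2, leaving out WT2 and SE3 gave 0.047 for Ccnb1, and leaving out WT1 and SE2 gave -0.079 for Pola2, 0.015 for Pole2, 0.0058 for Mki67 and 0.048 for Ccnb1. With 1 library left out, SE vs WT values ran from -0.21 to 0.048 for Orc1, -0.055 to 0.077 for Pola2, -0.31 to 0.012 for Pole2, -0.088 to 0.060 for Ccnb1, -0.054 to 0.036 for Cdk6 and -0.14 to 0.014 for Mki67. In SA vs WT, library totals gave 0.020 for Cdk4 and 0.0013 for E2f2, leaving out WT2 and SE3 gave -0.024 for Rrm1, and leaving out WT1 and SE2 gave 0.11 for Cdc6, 0.042 for Ccne1, 0.025 for Cdk4, -0.025 for Dnmt1 and -0.0026 for Tyms. With 1 library left out, SA vs WT values ran from -0.030 to 0.14 for Mcm3, -0.044 to 0.10 for Rrm1, -0.026 to 0.085 for Dnmt1, -0.021 to 0.19 for Orc1, -0.058 to 0.17 for Pole2, -0.085 to 0.48 for Fen1, -0.19 to 0.18 for Tyms, -0.063 to 0.021 for E2f2, -0.12 to 0.047 for Ccne1, -0.17 to 0.11 for Cdc6 and -0.046 to 0.055 for Cdk4. In SE vs SA, leaving out WT2 and SE3 gave 0.033 for Ccnd1 and 0.010 for Fen1. With 1 library left out, SE vs SA values ran from -0.11 to 0.11 for Ccnd1, -0.27 to 0.30 for Fen1 and -0.032 to 0.12 for Pold1. Genes of few counts, such as Cdc6, Fen1 and Tyms, are limited by depth.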
